A study of Mus musculus with 4 samples.

Results

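Accessible chromatin was found at the ends of 45 of 1110 protein-coding olfactory receptor genes (4.05%) in mouse pachytene spermatocytes, in at least 1 of 4 libraries. ATAC-seq reads open DNA through the places where a transposase can insert adapters, and each library came with its own list of peaks. A gene of the mm10 assembly (GRCm38.p6) was counted when its symbol starts with Olfr and a peak lay within 1 kb of either end of the gene. The genes were therefore chosen by the presence of a peak in these same libraries, and their counts by library are given as a description without a test. The other 1065 Olfr genes had no such peak and serve as the reference.

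The cells are meiotic germ cells isolated from mouse testis, at the stage where the autosomes are fully paired and the X and Y chromosomes lie in the silenced XY body. In the treated group RNA polymerase I had been inhibited with BMH-21 (2.5 µM, 12 h). The control group, called mock here, had received the solvent DMSO. Each group had 2 libraries, described as biological replicates, without a statement of strain, age or whether they came from separate animals, so their spread may be partly technical. About 10000 cells went into each library.

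Olfactory receptors are G protein-coupled receptors that bind odorants on the cilia of olfactory sensory neurons, where each neuron expresses a single receptor allele and keeps the rest of the family in compact heterochromatin. They form the largest gene family of the mouse and lie in long tandem clusters. Class I receptors, related to those of fish, fill a large cluster on chromosome 7, and class II receptors make up the remainder. Individual receptors have been reported in testis and sperm, where Olfr16 (MOR23) is the best known example.

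The peak lists held 109230 and 117905 peaks for mock 1 and mock 2, against 51234 and 55459 for BMH-21 1 and BMH-21 2, and the read total of each library is not given in the sources used here. A gene-end peak was present for 9, 9, 9 and 8 of 10 pachytene marker genes in mock 1, mock 2, BMH-21 1 and BMH-21 2, and Ccna1 had none. Markers of other testis cells also had peaks, in a range to be read against 70.1%, 70.7%, 61% and 61.4% of all protein-coding genes in the same order. Macrophage genes had peaks at 4, 4, 1 and 1 of 5 genes and round spermatid genes at 2, 3, 0 and 0 of 5. Spermatogonial genes had peaks at 4, 4, 2 and 3 of 5, Leydig genes at 3, 3, 2 and 2 of 5 and Sertoli genes at 3, 3, 4 and 3 of 5. The part of such cells in the results on receptor genes was not tested.

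Peaks reached into the window that RefSeq gives around the start in 10 members, and the start regions of 5 of these are shown. They are the 250 bases before the start that RefSeq annotates (GRCm38.p6), on the strand of the gene, with capitals marking matches to any of the 5 short motifs described with the base composition. Olfr543, Olfr544 and Olfr545 are neighbouring class I receptors on chromosome 7. Olfr1349, also on chromosome 7, and Olfr212, on chromosome 6, are class II receptors.
Olfr543: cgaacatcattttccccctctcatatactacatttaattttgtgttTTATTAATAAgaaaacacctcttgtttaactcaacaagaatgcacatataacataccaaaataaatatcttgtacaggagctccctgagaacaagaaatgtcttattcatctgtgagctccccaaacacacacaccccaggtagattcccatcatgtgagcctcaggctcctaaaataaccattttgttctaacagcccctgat
Olfr544: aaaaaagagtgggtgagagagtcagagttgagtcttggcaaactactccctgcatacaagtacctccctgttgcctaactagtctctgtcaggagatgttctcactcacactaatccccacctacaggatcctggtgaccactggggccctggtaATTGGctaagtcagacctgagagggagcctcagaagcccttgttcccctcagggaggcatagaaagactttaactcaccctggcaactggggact
Olfr545: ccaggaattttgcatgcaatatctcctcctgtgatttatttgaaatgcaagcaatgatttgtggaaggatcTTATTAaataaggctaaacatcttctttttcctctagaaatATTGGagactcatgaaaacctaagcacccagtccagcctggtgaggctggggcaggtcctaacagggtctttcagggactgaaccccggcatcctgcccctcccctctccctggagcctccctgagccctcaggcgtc
Olfr1349: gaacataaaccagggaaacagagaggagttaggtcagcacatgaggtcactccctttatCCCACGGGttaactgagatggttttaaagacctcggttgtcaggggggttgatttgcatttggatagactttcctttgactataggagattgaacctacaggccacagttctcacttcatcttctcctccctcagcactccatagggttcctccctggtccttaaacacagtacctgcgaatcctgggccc
Olfr212: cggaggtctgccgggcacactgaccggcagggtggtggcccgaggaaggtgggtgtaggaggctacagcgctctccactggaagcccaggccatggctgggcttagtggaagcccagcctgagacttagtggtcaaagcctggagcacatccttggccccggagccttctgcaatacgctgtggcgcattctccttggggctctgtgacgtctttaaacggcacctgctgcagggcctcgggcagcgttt
The windows lie at chr7:102477903-102478152, chr7:102488308-102488557, chr7:102494774-102495023, chr7:6515428-6515677 and chr6:116506266-116506515, in that order. The first 4 are on the minus strand and Olfr212 is on the plus strand. In Olfr545 and Olfr1349 a start codon follows directly. The Olfr545 gene begins at the coding sequence, so its start of transcription is not annotated. The annotated Olfr1349 gene (chr7:6514199-6520355) extends further, so its window lies inside the gene and not at its 5′ end. Its summit in mock 1 was 107 bp from the RefSeq start but 5035 bp from the 5′ end of the gene.

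Peaks covered unequal parts of these windows. In Olfr544 they covered 66 of the 250 bases in mock 1, 131 in mock 2 and 0 in both BMH-21 libraries. The Olfr545 window was covered over 85 and 100 bases in the mock libraries and 0 in both BMH-21 libraries, although a peak inside the gene remained there. Peaks were thus called in the windows of both neighbours in the mock libraries and in neither window in the treated libraries. A missing call does not show that the chromatin there was closed. In Olfr1349 the covered lengths were 82, 250, 40 and 0 bases in mock 1, mock 2, BMH-21 1 and BMH-21 2, and in Olfr212 mock 2 alone reached the window, over 200 bases. The peak of Olfr543 in mock 1 ended inside the gene, just after the start, and covered 0 of the 250 bases in every library. Among the members not shown, peaks covered 80 bases at Olfr279 in BMH-21 2 alone and 202 at Olfr1414 in mock 1 alone. At Olfr222, Olfr323 and Olfr455 they covered 0 in every library. There a peak reached only the part of the RefSeq window past the start, in BMH-21 2, BMH-21 1 and mock 1 respectively. The windows shown therefore do not give the balance between the groups over all 10 members.

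Olfr genes with a peak were fewer in the treated libraries. A gene-end peak was present at 30 Olfr genes in mock 1 (2.70%, exact Clopper-Pearson 95% interval 1.83 to 3.84%), at 30 in mock 2 (2.70%, 1.83 to 3.84%), at 11 in BMH-21 1 (0.991%, 0.496 to 1.77%) and at 14 in BMH-21 2 (1.26%, 0.691 to 2.11%). The counts of the 2 groups did not overlap. The intervals cover counting error only and treat genes as independent, which neighbours in a cluster may not be. They do not measure the spread between libraries and are no test of the groups. Over all 21883 protein-coding genes, the corresponding shares were 70.1%, 70.7%, 61% and 61.4%. A peak in any library was present at 73.5% of protein-coding genes, and at 77.2% of those that are not Olfr genes.

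Members called in mock libraries alone outnumbered those called in all 4. A gene is called mock-only when both mock libraries and neither BMH-21 library had a peak, and BMH-21-only in the reverse case. Of the 45 members, 15 (33.3%) were mock-only, 6 (13.3%) had a peak in all 4 libraries and 2 (4.44%) were BMH-21-only. Among all 16086 protein-coding genes with a peak in any library, 10.8% were mock-only, 78.8% had a peak in all 4 and 1.09% were BMH-21-only. A further 14 members had a peak in 1 mock library alone and 5 in 1 BMH-21 library alone, against backgrounds of 3.32% and 0.877%, and 3 had another combination (background 5.13%). The mock-only count depended on list length. With the strongest 51234 peaks of each list there were 24 members, of which 5 were mock-only, 4 BMH-21-only and 3 in all 4 libraries. Without mock replicate 2, 23 genes had a peak in the remaining mock library and neither BMH-21 library.

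**Figure D1:**
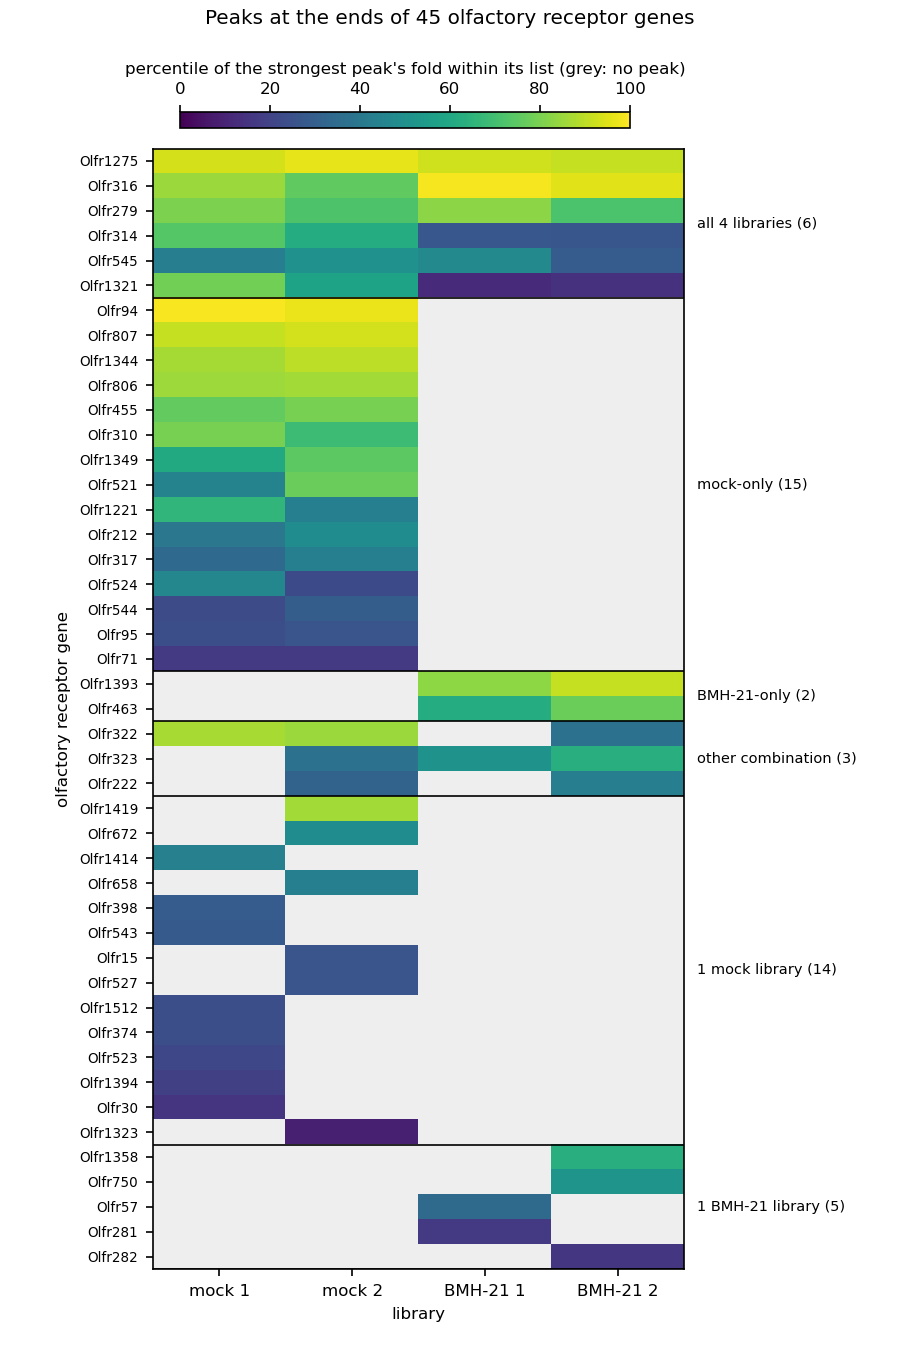
Each row is 1 of 45 olfactory receptor genes and each column 1 library; colour gives the percentile of the strongest gene-end peak's deposited fold within its own list, and grey marks no peak. The 15 mock-only genes form the largest block, 6 genes are coloured in all 4 columns, and most of the 14 genes seen in 1 mock library have low percentiles.

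The folds of the members' peaks were near the middle of their lists. The fold is the authors' own value for each peak, set against background within 1 library, so folds are not normalised between libraries. Median folds of the members' peaks were 4.15 in mock 1, 4.33 in mock 2, 4.58 in BMH-21 1 and 4.99 in BMH-21 2, against medians of 4.33, 4.35, 4.53 and 4.61 over the whole lists. The median percentile of these peaks was 44.3, 48.5, 51.3 and 57.2 in the same order. Peaks with a deposited −log10 q under 5 made up 15.6% and 15.2% of the members' peaks in mock and 9.09% and 14.3% after BMH-21, against 7.68%, 9.31%, 11.3% and 11.4% of the lists. In all there were 90 peaks, and where a member had a peak in at least 2 libraries, in 26 genes, the same position overlapped in all of its libraries in 24.

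The 6 members open in all 4 libraries lay on 5 chromosomes. The highest mean percentile of fold within the lists, 93.5, was that of Olfr1275 (chr2:111230853-111233393), with folds of 8.89, 10.3, 9.24 and 8.99 in mock 1, mock 2, BMH-21 1 and BMH-21 2. Its peak is also within 1 kb of an end of A26c3, an ankyrin repeat gene 1250 bp away, and its summit lay 3816 to 4254 bp past the 5′ end of Olfr1275. This peak can therefore not be assigned to the receptor rather than to its neighbour.

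Olfr316 (chr11:58751530-58759466) had folds of 6.86, 5.83, 12.1 and 10.4 in mock 1, mock 2, BMH-21 1 and BMH-21 2. It is the member with the highest fold in each BMH-21 list. Its summits lay 160 to 244 bp outside the 5′ end of the gene, which is at -6297 to -6381 bp from the start in the promoter table of RefSeq. Olfr279 (chr15:98497474-98498406), the outermost receptor of its cluster, had folds of 6.21, 5.52, 7.19 and 6.01 in mock 1, mock 2, BMH-21 1 and BMH-21 2. Its summits were 428 to 688 bp downstream of the start, inside the coding gene.

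The other 3 had their summits inside the receptor gene, apart from a second peak at Olfr545. Olfr314 (chr11:58786139-58787269) overlaps Fam183b and had folds of 5.60, 4.89, 3.66 and 3.71 in mock 1, mock 2, BMH-21 1 and BMH-21 2. On the X chromosome, Olfr1321 (chrX:49726973-49727932) had folds of 6.10, 4.70, 3.11 and 3.27 in the same order. Olfr545 (chr7:102493823-102494773), known as S50, is a class I receptor with folds of 4.08, 4.39, 4.40 and 3.79 in the same order. Its peak in the gene was 1020, 1031, 512 and 365 bp wide in that order. A second peak past the far end was present in both mock libraries, with folds of 3.73 and 3.78, and in neither BMH-21 library.

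The 15 mock-only genes spanned the whole range of peak strength. Olfr94 (chr17:37196806-37197966) was the strongest, with folds of 12.2 and 10.6, at a mean percentile of 98.0 in the lists. Its peak also lay at an end of Ubd, the gene of a ubiquitin-like protein 705 bp away that was itself mock-only. Its neighbour Olfr95 had folds of 3.43 and 3.58, so the 2 adjacent genes differed in strength but not in class. Olfr806 and Olfr807 are also adjacent, in the chromosome 10 cluster, with folds of 6.98 and 7.18 and of 8.12 and 8.84. Their summits lay beyond the 3′ end of each gene, 1290 to 1320 bp and 2164 to 2165 bp from the 5′ end.

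On chromosome 7 the mock-only genes were Olfr1344 (folds 7.11 and 8.0), Olfr1349 (4.81 and 5.76), Olfr310 (6.14 and 5.27), Olfr521 (4.15 and 5.99), Olfr524 (4.19 and 3.42) and Olfr544 (3.40 and 3.70). Olfr544 (chr7:102484114-102488307) is a class I receptor and had 2 peaks in each mock library, near its start and near its far end. The peak near the start had folds of 3.18 and 3.70 in mock 1 and mock 2, and that near the far end 3.40 and 3.69. The values listed above are the strongest in each library and pair different peaks. The remaining mock-only genes were Olfr455 (5.78 and 6.21) and Olfr212 (3.97 and 4.33) on chromosome 6, Olfr1221 (5.05 and 4.14) on chromosome 2, Olfr317 (3.79 and 4.14) on chromosome 11 and Olfr71 (3.16 and 3.21) on chromosome 4. For Olfr212 and Olfr524 the peaks of the 2 mock libraries did not overlap each other.

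Most mock-only genes had no BMH-21 peak close by. The distance from a gene end to the nearest peak of either BMH-21 library had a median of 19570 bp over the 15 genes and ranged from 1038 bp at Olfr1349 to 506563 bp at Olfr310. At 3 of them it was within 5 kb. Olfr1349 missed the window narrowly, since BMH-21 1 had a peak 1038 bp from its end that reached the start region shown above. The nearest peak of BMH-21 2 there was 78501 bp away. Olfr806 had BMH-21 peaks at 2252 and 2210 bp and Olfr1344 at 4289 and 4204 bp.

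The 2 BMH-21-only genes lay on chromosome 11. Olfr1393 (chr11:49263873-49292359), a receptor also described in kidney, had folds of 7.27 in BMH-21 1 and 8.99 in BMH-21 2, with summits 989 and 965 bp inside the 5′ end of the gene. From the start in the promoter table of RefSeq, which lies further inside, they are at -15288 and -15312 bp. The mock libraries had a different peak 1022 and 1015 bp outside the same gene, on the side of Mgat1, an N-glycan processing enzyme gene that had a peak in all 4 libraries. Olfr463 (chr11:87892987-87893922) had folds of 5.13 and 6.65 and summits 613 and 606 bp upstream of its start. Its nearest mock peaks were 4808 and 4675 bp away. No gene had this class when the window was 500 bp (0), and 1 had it when the window was 2.5 kb. Without BMH-21 replicate 1 the count was 5, and without BMH-21 replicate 2 it was 4.

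Genes with other combinations were also confined to chromosome 11 in these libraries. Olfr322 had folds of 7.22 and 6.96 in mock and 4.11 in BMH-21 2, Olfr323 had 3.95 in mock 2 and 4.58 and 5.28 in the BMH-21 libraries, and Olfr222 had 3.76 in mock 2 and 4.30 in BMH-21 2. All of their summits lay inside the gene. Of the 14 genes with a peak in 1 mock library alone, Olfr1419 had the strongest, with a fold of 7.15 in mock 2, and the others had folds of 2.82 to 4.33. They were Olfr15, Olfr30, Olfr374, Olfr398, Olfr523, Olfr527, Olfr543, Olfr658, Olfr672, Olfr1323, Olfr1394, Olfr1414 and Olfr1512. The 5 genes with a peak in 1 BMH-21 library alone were Olfr1358 (5.28), Olfr750 (4.69), Olfr57 (3.91), Olfr281 (3.30) and Olfr282 (3.32). These single calls rest on 1 library within the 1 kb window. At Olfr523 and Olfr1419 the other mock library had an overlapping peak just outside the window, 1078 and 1165 bp from the gene end.

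The members were closer to other genes than the remaining Olfr genes were. The distance to the nearest gene of any type that is not an Olfr gene had a median of 11951 bp (quartiles 4252 and 24426 bp) over the 45 members and 37127 bp (14656 and 82025 bp) over the 1065 remaining genes. It was at most 5 kb for 12 members (26.7%) and 103 of the remaining genes (9.67%), and above 50 kb for 5 (11.1%) and 427 (40.1%). No member lay more than 100 kb from another gene, whereas 212 Olfr genes did. Genes are not replicates and no test was made across them.

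The same order was seen for protein-coding neighbours and within clusters of like size. The median distance to the nearest protein-coding gene outside the family was 24052 bp for members and 147893 bp for the remaining genes. In clusters of up to 10 genes the medians to any gene were 13045.5 and 20508 bp, in clusters of 11 to 50 genes 6221 and 33557 bp, and in larger clusters 14343 and 43176 bp. Among remaining genes, those in clusters that hold a member and those in clusters without one had similar medians, 36990 and 37578 bp. The difference thus remained against genes of clusters that hold a member, but these medians pool clusters of unlike size. Members were not compared with the other genes of their own cluster.

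**Figure D2:**
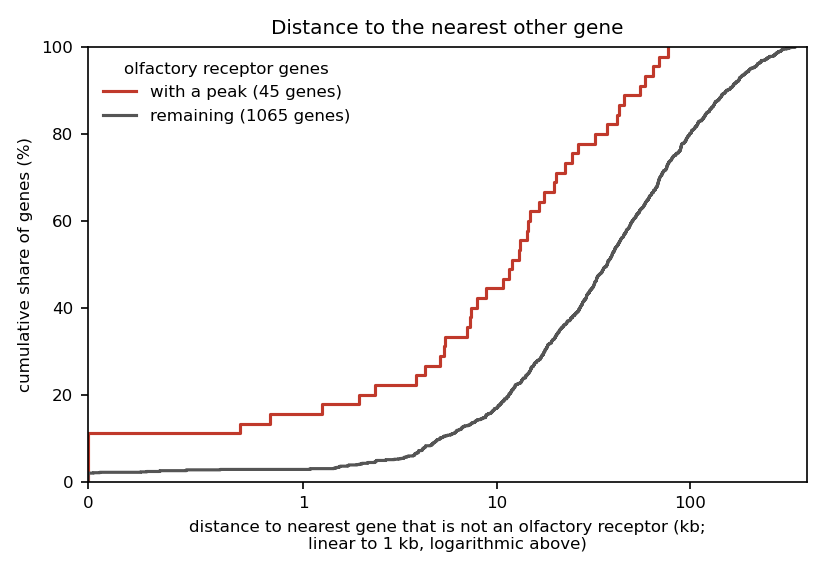
The cumulative share of olfactory receptor genes is plotted against the distance to the nearest gene outside the family, for the 45 genes with a peak and the 1065 remaining. The curve of genes with a peak lies to the left, with medians of 11951 and 37127 bp.

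The share of Olfr genes with a peak was highest among those that overlap another gene and lowest at the greatest distances, without a steady order between. Of the 26 Olfr genes that overlap another gene, 5 (19.2%) were members. The share was 7.87% (7 of 89) up to 5 kb, 9.41% (8 of 85) from 5 to 10 kb and 5.98% (11 of 184) from 10 to 20 kb. It was 3.06% (9 of 294) from 20 to 50 kb, 2.27% (5 of 220) from 50 to 100 kb and 0 of 212 beyond. A peak that also lay within 1 kb of an end of another gene accounted for 5 members, 2 of them with a protein-coding gene, Olfr94 with Ubd and Olfr1275 with A26c3. Leaving such peaks out, a choice made after the data were seen, gave a median distance of 13737 bp.

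The nearest protein-coding gene had a peak more often for members than for remaining Olfr genes, at shares below those of all protein-coding genes. A gene nearest to several receptors was counted once for each of them. The nearest protein-coding gene outside the family had a gene-end peak in any library for 30 of 45 members (66.7%) and for 469 of 1065 remaining genes (44.0%). It had a peak in all 4 libraries for 24 (53.3%) and 345 (32.4%). Over all protein-coding genes these shares were 73.5% and 57.9%. Neighbours were mock-only for 3 members (6.67%) and for 59 remaining genes (5.54%), which are similar shares. Those of members were Ubd, counted for both Olfr94 and Olfr95, and Epx for Olfr463. Of the 15 mock-only members, those beside Rrm1 (Olfr544), Alox5 (Olfr212), Neu3 (Olfr521), Ptprj (Olfr1221), Fam183b (Olfr317) and Tmem8b (Olfr71) had a neighbour with a peak in all 4 libraries, at 12960 to 1317246 bp. In these 6 cases the receptor was called in mock libraries alone while its neighbour was called in all 4.

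Members were spread over 14 of the 17 chromosomes that carry Olfr genes, at unequal shares. Chromosome 7 held 12 of 239 (5.02%) and chromosome 11 held 11 of 83 (13.3%), while chromosome 2, with 287 Olfr genes, held 2 (0.697%) and chromosome 9 held 0 of 130. On chromosome 15 there were 3 of 9 and on X 2 of 6. Peaks were called at 9 Olfr genes of chromosome 7 in mock 1, at 10 in mock 2 and at 1 in each BMH-21 library. On chromosome 11 the counts were 7, 6, 5 and 7 in mock 1, mock 2, BMH-21 1 and BMH-21 2. The counts of the groups were apart on chromosome 7 and overlapped on chromosome 11. Over all protein-coding genes of the genome the shares with a peak were 70.1%, 70.7%, 61% and 61.4% in the same order. Shares over all genes of each chromosome, and counts by chromosome with lists of equal length, are not given here. The difference between the chromosomes was not tested.

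**Figure D3:**
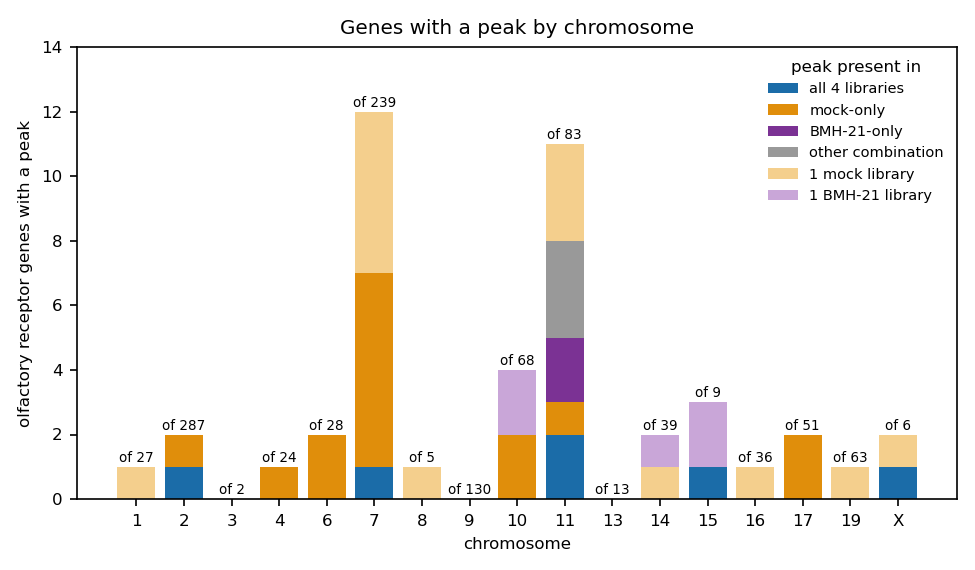
Bars give the number of olfactory receptor genes with a peak on each chromosome, divided by the libraries in which the peak was present, and the label above each bar gives all such genes there. Chromosomes 7 and 11 hold 12 and 11 genes with a peak, and chromosome 9 holds 0 of 130.

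Olfr genes whose neighbours were at most 1 Mb apart were joined into clusters, which gave 50, of which 10 held a single gene. Members lay in 24 of them. Of Olfr genes in clusters of 2 to 10 genes 17.8% (16 of 90) were members, in clusters of 11 to 50 genes 5.28% (20 of 379) and in larger ones 1.43% (9 of 631). None of the 10 Olfr genes that lie alone was a member (0 of 10). The first or last 2 genes of a cluster made up 20 of 45 members (44.4%) and 136 of 1065 remaining genes (12.8%). Among genes in clusters of at least 2, members were thus found more often in small clusters and near cluster edges, which are related properties.

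The cluster with the most members lay on chromosome 11 from 58454915 to 59614225, where 7 of 24 genes had a peak. These were Olfr30, Olfr323, Olfr322, Olfr317, Olfr316, Olfr314 and Olfr222. Peaks were called there at 5, 6, 3 and 5 genes in the 4 libraries in that order. The chromosome 2 cluster of 222 genes, the largest of the family, had 1 member, Olfr1221, and the chromosome 9 clusters of 35 and 95 genes had none. In the chromosome 7 cluster of 126 genes, which holds the class I receptors, 5 genes had a peak. Olfr543, Olfr544 and Olfr545 were its first 3 genes, beside Rrm1, which encodes the large subunit of ribonucleotide reductase, and the other 2 were Olfr658 and Olfr672.

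Class did not separate members from the rest. Class was read from the MOR family number in the synonyms (1 to 42 for class I). Of 122 class I genes 5 (4.10%) were members and of 961 class II genes 38 (3.95%), with 27 genes, 2 of them members, left without a class. Gene models were somewhat longer among members. Those over 2 kb were 11 of 45 members (24.4%) and 140 of 1065 remaining genes (13.1%), and the median lengths were 967 and 948 bp.

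Most summits lay within the receptor gene and not before it. For the 34 members shorter than 1200 bp, the gene itself made up a median of 32.3% of the window that was searched, and 47 of 65 summits (72.3%) lay inside it, at 23 of the genes. The start annotated by RefSeq was known for 40 members with 84 peaks. Summits lay 0 to 1 kb downstream of it in 51 peaks and up to 1 kb upstream in 5 peaks of 4 genes, with 28 further away. Only Olfr1414 and Olfr212 had a summit within 250 bp upstream, at 119 bp in mock 1 and 148 bp in mock 2. At many receptors a start codon follows the RefSeq start directly, as in 27 of the 40 members and 659 of 904 remaining genes. An upstream exon would not be seen from such a start.

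**Figure D4:**
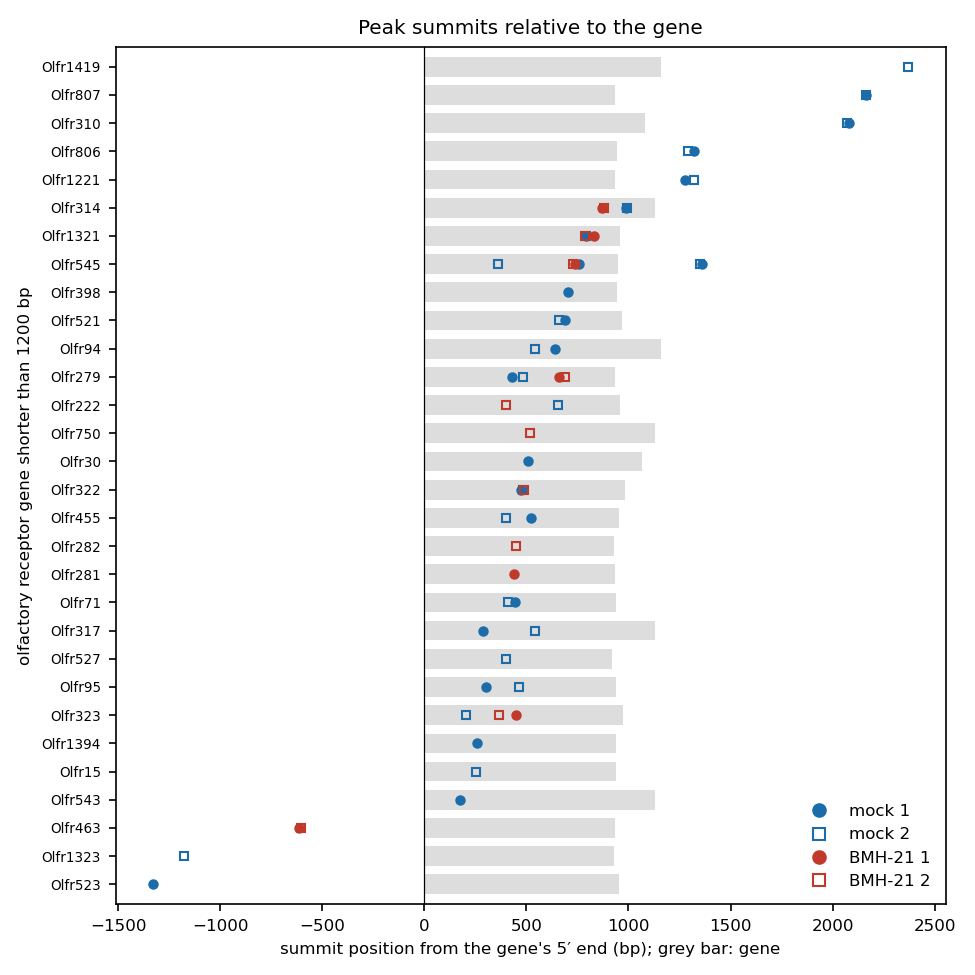
Summit positions of the gene-end peaks are plotted in bp from the 5′ end of the gene for members shorter than 1200 bp whose strand is known, with the gene as a grey bar, mock libraries in blue and BMH-21 libraries in red. Most points lie on the grey bars, and Olfr463, Olfr523 and Olfr1323 are the genes with points to their left.

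Start regions of members were richer in G and C. In the 300-base windows that RefSeq gives around the start (250 before, 50 after), available for 40 members and 904 remaining genes, the median G and C content was 47.7% (quartiles 41.2 and 50.8%) in members and 35% (31.7 and 39.3%) in the 908 windows of the remaining genes. Among other protein-coding genes the medians were 59.7% with a gene-end peak and 46.7% without one. Members were therefore near the level of other genes that lack a peak. Median numbers of CpG were 2.5 and 1 per window, and windows without any CpG made up 10.0% and 34.4%.

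The share of members rose with that content from 40% upwards and was low, without such an order, below 40%. Members were 13 of 26 Olfr windows (50.0%) with at least 50% G and C, 9 of 63 (14.3%) from 45 to 50%, 11 of 141 (7.80%) from 40 to 45%, 2 of 262 (0.763%) from 35 to 40% and 5 of 456 (1.10%) below 35%. The 5 members below were Olfr1221, Olfr1275, Olfr310, Olfr806 and Olfr807, and in all 5 the summits lay beyond the gene and not near its start. The highest were Olfr212 (62.3%), Olfr1414 (59%) and Olfr15 (55.7%). On chromosome 7 the medians were 49.3% for members and 37% for remaining genes, and on chromosome 11 they were 42 and 39.7%. The part of base content in the peak calls was not tested.

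**Figure D5:**
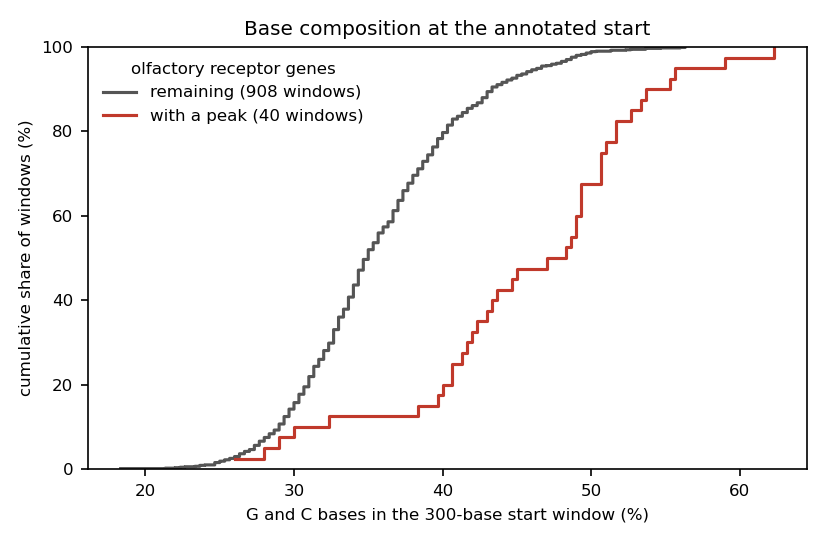
The cumulative share of 300-base start windows is plotted against their G and C content for olfactory receptor genes with a peak (40 windows) and the remaining ones (908 windows). The curve of genes with a peak lies to the right, with medians of 47.7% and 35%.

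Short motifs differed in frequency in the direction of that content. The 5 motifs searched were the CCAAT box, the TATA box as TATAAA, the homeodomain core as TAATNA, the site of Ebf factors as CCCNNGGG and the GC box as GGGCGG. Both strands were searched, and matches may overlap each other. TAATNA was in 37.5% of member windows and 67.1% of remaining Olfr windows, against 22.6% of all protein-coding windows. TATAAA was in 17.5% and 42.1%, against 12.6%. Both AT-rich motifs were thus less frequent at members, and the G- and C-rich ones more frequent. CCCNNGGG was in 12.5% (5 of 40 windows) and 2.64% (24 of 908), against 15.6%. GGGCGG was in 5.00% (2 of 40) and 0.881% (8 of 908), against 46.2%, so these differences rest on few member windows. CCAAT, in 42.5% and 40.5%, against 38.2%, was similar in all 3 sets. In the sequences shown above, CCAAT lies on the opposite strand (read as ATTGG) at -95 to -91 from the start of Olfr544 and at -138 to -134 from that of Olfr545, and the single CCCNNGGG is in Olfr1349, at -191 to -184. A match is a description of the letters and not a bound site.

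Most receptors known from other settings had no peak called at their ends. Of the 9 receptors of a list of studied genes that are annotated as protein-coding, 2 were members, Olfr544 and Olfr1393, against 4.05% of the whole family. Olfr16, the sperm receptor, had its nearest peaks 12886 and 12906 bp away in mock 1 and mock 2, and those of the treated libraries were 323388 and 323360 bp away. At Olfr78, known from the carotid body, the distances were 11443, 6595, 53200 and 53181 bp in mock 1, mock 2, BMH-21 1 and BMH-21 2. At its neighbour Olfr558 they were 14857, 14866, 14802 and 14783 bp. No library had a peak called at these 3 genes, and a missing call does not show that chromatin was closed. Olfr2 (I7), Olfr17 (P2), Olfr160 (M72) and Olfr1507 (MOR28) had no peak within 10 kb of an end in any library.

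The 1 kb limit did not fall in a gap of the distances. The members just inside it were Olfr1419 (985 bp from the nearest gene end to the nearest peak of any library) and Olfr523 (949 bp), and the genes just outside were Olfr1279 (1071 bp) and Olfr799 (1084 bp). Within 2 kb there were 59 Olfr genes, within 5 kb 121 (10.9%) and within 10 kb 225 (20.3%). A peak inside the gene but over 1 kb from both ends was present at 4 further genes, Olfr18, Olfr70, Olfr287 and Olfr687, in mock libraries alone. The nearest peak of the remaining genes was a median of 48959, 43438, 212821 and 238711 bp away in mock 1, mock 2, BMH-21 1 and BMH-21 2.

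Peaks elsewhere in the clusters, which the choice of members did not use, were also fewer after BMH-21, and the difference lay on the autosomes. More than 1 kb from any Olfr gene end, the 34.8 Mb of clusters held 673 peaks in mock 1, 762 in mock 2, 285 in BMH-21 1 and 299 in BMH-21 2. The mock mean was 717.5 ± 62.9 (SD, n = 2) and the BMH-21 mean 292 ± 9.90 (SD, n = 2), which is 0.407 of it. A two-sided exact permutation of the 4 libraries has 3 splits and gave p = 0.33, and no smaller p is possible with these numbers. The autosomal clusters held 567, 642, 179 and 200 of these peaks in mock 1, mock 2, BMH-21 1 and BMH-21 2, a difference of means of -415. The X clusters held the rest, at similar counts in mock and treated libraries. On the autosomes the clusters held 16.6, 18.9, 5.26 and 5.87 such peaks per Mb in the same order, against 36.6, 39.5, 14.2 and 15.5 per Mb of whole autosomes. The autosomal clusters were thus sparser in peaks than the autosomes in every library. With lists of equal length the counts over all clusters were 331, 319, 285 and 278 in the same order. The difference of means was then -43.5, against -425.5 with the full lists. Peaks at the ends of genes outside the family made up 24.1% and 21.9% of the cluster peaks in mock 1 and mock 2 and 40.4% and 39.8% in the treated libraries. The corresponding shares over the whole lists are not given here, so this difference cannot be read as particular to the clusters.

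Other receptor families of the nose and tongue had fewer genes with a peak. Of 230 Vmn1r genes, vomeronasal receptors, 2 (0.870%) had a gene-end peak in any library, and of 123 Vmn2r genes 1 (0.813%). None of 15 Taar genes, which encode trace amine receptors, and none of 35 Tas2r bitter taste receptor genes had one. For the Vmn1r genes the counts by library were 1, 2, 1 and 1. The share of Olfr genes was 4.05%, and the difference between the families was not tested.

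Most genes that act with olfactory receptors had a peak at an end, as did most protein-coding genes. Of 29 genes of odorant signalling and receptor choice, 20 had a gene-end peak in all 4 libraries, 2 were mock-only, 3 had other combinations, 4 had none and 0 were BMH-21-only. Over all protein-coding genes, 57.9% had a gene-end peak in all 4 libraries and 73.5% in any. The G protein gene Gnal, which couples the receptors to adenylyl cyclase, had folds of 8.54, 8.81, 3.29 and 4.03 in mock 1, mock 2, BMH-21 1 and BMH-21 2. Lhx2, a homeodomain factor of receptor choice, had 9.74, 10.0, 12.1 and 12.1. The mock-only genes were Ano2, a calcium-activated chloride channel (6.32 and 8.28), and Ldb1, a cofactor of Lhx2 (2.97 and 2.93). Ebf1 had a peak in mock 2 and both BMH-21 libraries, and Omp, the olfactory marker protein gene, had one in all but BMH-21 1. The channel subunit gene Cngb1, the receptor transporter genes Rtp1 and Rtp2, and Stoml3 had none. Omp, Gnal, Cnga2, Gng13 and Stoml3, taken as markers of olfactory sensory neurons, had a peak at 4, 4, 3 and 4 of 5 genes in mock 1, mock 2, BMH-21 1 and BMH-21 2. A peak at a gene end does not show that the gene is expressed.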

How the data were processed

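ATAC-seq peaks of 4 libraries were used as deposited, 1 narrowPeak list per library, so the authors did not pool samples. Per the submitters' processing notes, fastp, Bowtie2, bedtools, deepTools and MACS2 2.1.0 were used, in roles that are not given in the sources used here. The same holds for the settings of peak calling and of reads that map to several places. Receptor genes have near-identical copies, so a peak at 1 copy may include reads of another. The deposited fold is a ratio to background within 1 library. The score in the deposited lists equals 10 times the −log10 q (within 1, from the values). Like the −log10 p as deposited, it is not normalised between libraries. The design text names an RNA library kit, the extract protocol a tagmentation kit. The notes name mm39 and mm10. Peaks on chromosome 1 reach 195371813, past the end of that chromosome in mm39, so mm10 was used.

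Genes came from the RefSeq table of GRCm38.p6 (49939 genes on chromosomes 1 to 19, X and Y) and start windows from RefSeq for the same build. Of the members, 40 of 45 were found there. Positions are 1-based. A peak was near a gene if it overlapped 1 kb on either side of an end. The members, lists and tests were chosen with earlier results of these data known. The rule for named genes took members in all 4 libraries, up to 12 mock-only and 12 BMH-21-only members by mean rank of fold, those with the widest peak or highest fold, their nearest other genes, and listed receptors. The other members are named so that all 45 are accounted for. Of the listed receptors, 9 are among the 1110 genes, and Olfr151 is annotated as a transcribed pseudogene. The 29 signalling genes and the cell markers were listed by hand. The values of 1 signalling gene are not reported here. Only peaks in clusters away from receptor gene ends were tested, by an exact permutation over libraries. Window and distance functions were tested on simulated data. Python 3.11.15, pandas 2.3.3, numpy 2.4.6, scipy 1.17.1 and matplotlib 3.10.9 were used.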

Additional observations from a re-analysis of the deposited data

How the results depend on the processing

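Alternatives were windows of 500 bp and 2.5 kb, a deposited −log10 q of at least 5, lists of equal length, 100 bp on either side of the summit, Olfr genes of every type, and leaving out each library. A further 2, without peaks at other genes' ends and with autosomes only, were chosen after seeing the data. Genes with any peak numbered 70 with 2.5 kb and 24 with equal lists. Mock-only genes numbered 25 and 5, and genes in all 4 libraries 3 with equal lists. BMH-21-only genes numbered 0 with 500 bp, 1 with 2.5 kb and 4 with equal lists. Leaving out 1 library gave 37 to 43 genes with any peak, 15 to 23 mock-only (23 without mock replicate 2), 2 to 5 BMH-21-only and 6 to 7 in all the libraries left. The median distance was 24052 bp to protein-coding genes and 9762 to 13737 bp otherwise. The BMH-21 minus mock difference in cluster peaks kept its sign in every alternative run, from -470 without mock replicate 1 to -43.5 with equal lists, and was -381 without mock replicate 2 and -310 with clusters joined at 0.5 Mb. With the replicate number as a block it was -425.5 (exact sign flips, p = 0.5, the smallest possible). The cause of each change was not tested. Fewer peaks or shorter windows cannot raise the count of genes with any peak, but this does not hold for the BMH-21-only count. The read depth of each library is not given in the sources used here, so a missing peak may be a weak one.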
